A study of Mus musculus with 2 samples.

Results

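The genes described here are type I interferon-stimulated genes (ISGs), a set of 35 symbols. They are listed by name with no cut on a measured value, but the list was chosen with earlier results of these data known. A row was found for 34 of them among the 31053 genes of the files, and *Mx2* was not analysed here. They were read in CD11b+Ly6C+Ly6G− bone marrow (BM) cells of mice with severe aplastic anemia (SAA) and of radiation controls (RC). The mice carried the genotype C57BL/6;Balb/c, a first-generation hybrid, and every mouse received 300 rads. SAA mice were in addition given 65000000 splenocytes of B6 mice into the peritoneum. Cells of 3 mice were pooled per condition into 1 library each by the 10x Genomics 5′ protocol, so no comparison of RC with SAA has replicates and none was tested. The time of harvest of the sequenced cells is not given in the sources used here.

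Type I interferons signal through the receptor IFNAR and the kinases JAK1 and TYK2 to a complex that holds STAT2 and IRF9 and binds the interferon-stimulated response element (ISRE) before its target genes. The proteins made from these genes sense viral RNA, block its translation or replication, and tune the signal itself. Many of the same genes also respond to interferon-γ, and the RNA level of an ISG does not name the interferon that acted.

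The RC library held 798 barcodes with 4066589 unique molecular identifiers (UMIs, 1 per captured transcript) and the SAA library 825 barcodes with 5592265. Barcodes with at least 1000 detected genes were kept, 662 in RC and 729 in SAA. A cell was called monocyte-like where the summed UMIs of *Csf1r*, *Ccr2*, *F13a1*, *Ms4a6c* and *Ly86* exceeded those of *Camp*, *Ngp*, *Fcnb*, *Cebpe*, *Elane*, *Mpo*, *Prtn3* and *Ctsg*, and granulocyte-like in the opposite case. This gave 342 monocyte-like and 318 granulocyte-like cells in RC and 285 and 421 in SAA, with median depths of 3347.5, 6787.5, 6082 and 6849 UMIs per cell. Of 12 monocyte genes outside the rule, 12 were higher in monocyte-like cells of both libraries, and 11 of 12 granulocyte genes outside the rule were higher in granulocyte-like cells of both. UMIs of each gene were summed per library and class and scaled to a total of 1000000 UMIs per sum (CPM). CPM carry exact Poisson and ratios exact conditional 95% intervals, which cover counting error only and not the spread between mice. A gene was called higher or lower where its CPM differed by at least 2-fold with an interval that left out 1, given at least 20 UMIs in the sums compared.

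The 34 genes lie on 15 chromosomes, with all 6 genes of the OAS family on chromosome 5 and all 4 IFIT genes on chromosome 19. The core of the ISRE was sought, as GAAA repeated after a gap of 2 bases of any kind, on either strand in the 250 bases before the RefSeq start of each gene (GRCm38.p6). It was found before 12 of the 27 members with an entry (44.4%) and before 936 of 27025 genes of the table (3.46%). Shown are the stretches before 6 of the 12 members with a match. They run 5′ to 3′ on the strand of the gene and end at the base before the start, with bases of a match in capitals. These 6 were chosen with the levels known, and a link of match and level was not tested.
*Isg15*, chr4:156200819-156200918, minus strand: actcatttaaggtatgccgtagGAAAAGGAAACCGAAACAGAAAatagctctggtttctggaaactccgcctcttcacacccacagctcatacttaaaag
*Bst2*, chr8:71537473-71537622, minus strand: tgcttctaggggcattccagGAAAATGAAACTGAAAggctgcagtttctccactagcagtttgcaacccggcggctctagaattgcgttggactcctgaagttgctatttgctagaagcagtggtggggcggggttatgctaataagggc
*Ddx60*, chr8:61927987-61928086, plus strand: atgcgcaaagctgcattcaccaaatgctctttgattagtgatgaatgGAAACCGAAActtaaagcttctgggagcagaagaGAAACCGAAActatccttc
*Rsad2*, chr12:26456453-26456602, minus strand: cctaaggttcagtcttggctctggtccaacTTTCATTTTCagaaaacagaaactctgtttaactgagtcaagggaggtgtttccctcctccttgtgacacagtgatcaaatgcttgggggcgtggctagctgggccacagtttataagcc
*Oas1a*, chr5:120907526-120907625, minus strand: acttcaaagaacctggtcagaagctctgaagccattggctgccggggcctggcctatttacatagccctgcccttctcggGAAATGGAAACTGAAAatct
*Oas1g*, chr5:120887614-120887713, minus strand: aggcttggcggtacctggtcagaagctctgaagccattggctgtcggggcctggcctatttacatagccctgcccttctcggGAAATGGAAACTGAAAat
The matches begin at position -78 from the start of *Isg15*, which holds 3 that overlap, and at -130 before *Bst2*. *Ddx60* holds 2 that lie apart, at -53 and -19. The single match of *Rsad2*, at -120, is on the opposite strand. *Oas1a* and *Oas1g* carry the same 2 overlapping matches 2 bases apart in position, at -20 and -14 and at -18 and -12. No match was found in these windows of *Ifit2*, *Irf7*, *Oasl2*, *Cmpk2*, *Isg20*, *Samhd1* and *Ifi44*, which says nothing of bases farther away. The interferon-γ activated sequence TTCNNNGAA, which reads the same on the other strand, was found before 6 of the 27 members (22.2%) and 2197 of all genes (8.13%).

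In RC, without transferred splenocytes, ISG RNA was far more abundant in monocyte-like than in granulocyte-like cells. Of 27 members with enough UMIs, 22 were called higher in monocyte-like cells, against 22.9% of 8695 genes tested, and 1 was called lower, against 9.03%. Their median ratio of monocyte-like to granulocyte-like CPM was 6.02-fold (log2 2.59), while that of all genes tested was 0.38 on the log2 scale. The minimum of 20 UMIs was mostly met through the monocyte-like sum, where the members were high. Of the 12 members with at least 20 UMIs in the granulocyte-like sum itself, 8 were called higher and 1 lower, with a median of 1.6 on the log2 scale, and among the 22 with as many in the monocyte-like sum the median was 3.41. Summed over the 34 members the level was 3339 CPM in monocyte-like and 378.6 CPM in granulocyte-like cells of RC. *Ifi27l2a* and *Samhd1* made up most of that monocyte-like sum, at 1467 and 661.1 CPM, against 6.86 and 35.1 CPM in granulocyte-like cells. In granulocyte-like cells of RC 5 of the 34 genes had no UMI.

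Levels in SAA lay above those in RC in both classes, and by a larger factor in granulocyte-like cells. There 28 of 31 members were called higher than in RC, against 6.12% of 8812 genes, and 0 were called lower, against 4.51%. The median SAA to RC ratio was 14-fold (log2 3.81, with 3 members of 0 RC UMIs set to a floor of 3 UMIs). Most of these genes met the minimum only through the SAA sum. Among the 12 with at least 20 UMIs in RC granulocyte-like cells 9 were called higher, with a median of 2.17 on the log2 scale. In monocyte-like cells 15 of 33 were called higher, against 6.85% of 8662 genes, and 1 was called lower, against 8.14%. The median ratio in that class was 1.88-fold (log2 0.91), and 0.86 on the log2 scale over the 22 members with at least 20 UMIs in RC, of which 8 were called higher. For all genes tested the medians were 0.04 and -0.06 on the log2 scale in granulocyte-like and monocyte-like cells.

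**Figure D1:**
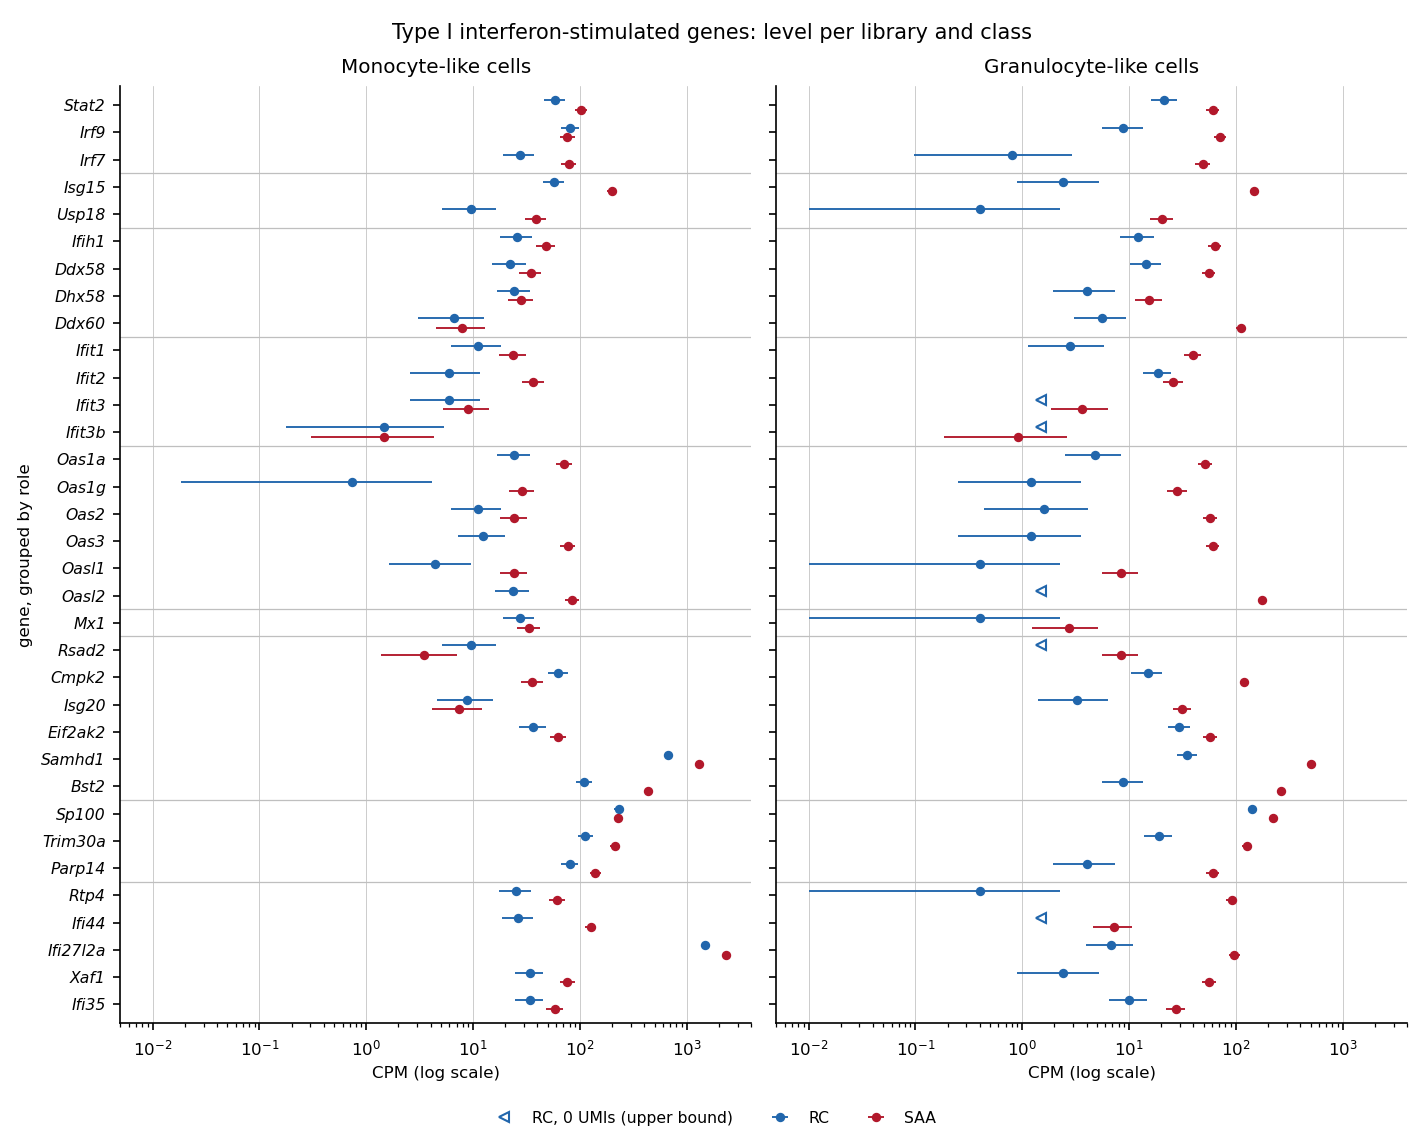
CPM on a log scale of 34 members in monocyte-like (left) and granulocyte-like cells (right), RC in blue and SAA in red, in order of role, with 95% counting intervals. An open triangle is the upper limit where a sum held 0 UMIs. Red points lie far to the right of blue points for most genes in the right panel, and closer to them in the left panel.

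The signalling members are the transcription factors that carry the interferon signal. *Irf7*, which amplifies the production of type I interferon, had 37 monocyte-like and 2 granulocyte-like UMIs in RC, and 160 and 163 in SAA. Its CPM were 27.2, 0.806, 78.9 and 49.2 in the same order. The SAA sums lay near each other, whereas the RC sums were 33.8-fold apart (8.71–289.3). The SAA to RC ratio of *Irf7* was 2.90 (2.01–4.26) in monocyte-like and 61.0 (16.6–507.6) in granulocyte-like cells. *Irf9*, the DNA-binding part of that complex, held 81.0 CPM in RC and 76.4 CPM in SAA among monocyte-like cells, a ratio of 0.944 (0.734–1.22). In granulocyte-like cells it stood at 8.87 and 71.8 CPM, a ratio of 8.09 (5.22–13.2). The interval held 1 in the first class and not in the second, and the second ratio was 8.57 times (5.11–14.8) the first. *Stat2* differed less between classes, with ratios of 1.76 (1.35–2.31) in monocyte-like and 2.86 (2.11–3.95) in granulocyte-like cells.

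*Isg15* encodes a ubiquitin-like protein that is joined to other proteins, and *Usp18* the protease that removes it and dampens the receptor. *Isg15* (chromosome 4, 156199424 to 156200818) had 77 and 6 UMIs in monocyte-like and granulocyte-like cells of RC, and 403 and 493 in SAA. That is 56.7, 2.42, 198.7 and 148.7 CPM. RC granulocyte-like cells were the low sum, and the other 3 lay within a 3.51-fold range. The SAA to RC ratio was 3.51 (2.74–4.53) in monocyte-like and 61.5 (28.0–168.3) in granulocyte-like cells. For *Usp18*, with 13, 1, 78 and 67 UMIs in that order, the ratios were 4.02 (2.22–7.88) and 50.1 (8.69–2008), the latter resting on 1 UMI in RC.

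The cytosolic sensors of viral RNA, with the genes tied to them, were called higher in SAA in granulocyte-like cells, 4 of 4, and in monocyte-like cells 0 of 4 reached the call. The shares of all genes called were 6.12% and 6.85%. *Ifih1*, which encodes MDA5, went from 25.8 in RC to 48.3 CPM in SAA in monocyte-like cells and from 12.1 to 63.3 CPM in granulocyte-like cells. *Ddx58*, which encodes RIG-I, stood at 22.1 and 34.5 CPM and at 14.5 and 55.8 CPM. Their SAA levels were therefore higher in granulocyte-like than in monocyte-like cells, by less than 2-fold. *Dhx58*, which encodes the regulator LGP2, had a granulocyte-like ratio of 3.81 (1.91–8.43) and a monocyte-like ratio of 1.16 (0.741–1.83).

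*Ddx60* (chromosome 8, 61928087 to 62038244), a helicase said to aid RIG-I, stood apart from the other members. It had 9 and 14 UMIs in monocyte-like and granulocyte-like cells of RC, and 16 and 367 in SAA. The levels were 6.63, 5.65, 7.89 and 110.7 CPM. A single sum was high, and the other 3 had overlapping intervals. Its ratio was 19.6 (11.5–36.2) in granulocyte-like and 1.19 (0.495–3.06) in monocyte-like cells, and in SAA its level was 14-fold higher in granulocyte-like cells. A *Ddx60* UMI was found in 21.3% (17.5–25.6%) of granulocyte-like and 2.25% (0.829–4.83%) of monocyte-like cells of SAA once every cell had been cut down by random draw to 2600 UMIs.

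The IFIT proteins bind viral RNA ends, and the 4 genes did not move alike. *Ifit1* had 15 UMIs in RC and 48 in SAA in monocyte-like cells, a ratio of 2.14 (1.18–4.12), and 7 and 131 in granulocyte-like cells, a ratio of 14 (6.61–35.5). All 7 RC granulocyte-like UMIs of *Ifit1* lay in 1 cell. *Ifit2* (chromosome 19, 34550694 to 34576419) went the other way. Its level was 5.89 CPM in RC and 36.5 CPM in SAA among monocyte-like cells, and 18.5 and 25.9 CPM among granulocyte-like cells, from 8, 74, 46 and 86 UMIs. The RC level was thus 3.15-fold higher in granulocyte-like cells, the sole call in that direction, and its SAA to RC ratio was 6.19 (2.99–14.9) in monocyte-like and 1.40 (0.967–2.0) in granulocyte-like cells. *Ifit2* was also the only member whose ratio was called smaller in granulocyte-like cells, by a factor of 0.226 (0.0870–0.527). This factor stayed below 1 under the 14 other settings tried, of which the mitochondrial limit removed no barcode. *Ifit3* was sparse, with 8, 0, 18 and 12 UMIs in RC monocyte-like, RC granulocyte-like, SAA monocyte-like and SAA granulocyte-like cells. *Ifit3b* had 2, 0, 3 and 3 UMIs. Transcripts of *Ifit3* and *Ifit3b* are 97.8% identical over 1700 aligned bases, so the split of reads between them is uncertain.

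Several of the OAS genes encode enzymes that make the 2′-5′ oligoadenylates that activate RNase L. All were called higher in SAA in both classes, 6 of 6 each, against 6.85% of all genes tested in monocyte-like and 6.12% in granulocyte-like cells. The median ratio of the family was 4.42-fold in monocyte-like and 28.9-fold in granulocyte-like cells. *Oasl2* (chromosome 5, 114896936 to 114912234) had 32 monocyte-like and 0 granulocyte-like UMIs in RC, against 171 and 587 in SAA. It was thus at least 146-fold higher in SAA than in RC among granulocyte-like cells with the floor of 3 UMIs (lower end of the exact interval 118.6), and 3.58-fold higher (2.44–5.40) among monocyte-like cells. The highest of its 4 sums, 177.0 CPM in granulocyte-like cells of SAA, lay in the class that had no UMI in RC. *Oas3* had 17, 3, 156 and 202 UMIs and ratios of 6.15 (3.72–10.8) and 50.4 (17–246.2). *Oas2* had 15, 4, 49 and 190 UMIs and ratios of 2.19 (1.21–4.2) and 35.5 (13.7–131.7). *Oasl1* was the low gene of the family in granulocyte-like cells of SAA, at 8.44 CPM against 24.2 CPM in monocyte-like cells.

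*Oas1a* and *Oas1g*, neighbours with transcripts that are 97.5% identical over 1860 aligned bases, had different RC levels. In RC *Oas1a* was at 24.3 CPM in the monocyte-like and 4.84 CPM in the granulocyte-like class, and in SAA at 71.0 and 51.9 CPM. For *Oas1g* these values were 0.736 and 1.21 CPM in RC, from 1 and 3 UMIs, and 28.6 and 28.4 CPM in SAA. *Oas1g* was thus near the limit of detection in both classes of RC and at like levels in both classes of SAA. Its monocyte-like ratio of 38.8 (6.70–1560) and granulocyte-like ratio of 23.4 (7.78–115.7) could not be told apart at this depth, and how the counting divided reads between the copies is not known.

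*Mx1*, a gene of the Mx GTPase family, kept a monocyte-like bias in both libraries. It had 37 UMIs in RC and 68 in SAA in the first class, and 1 and 9 in the second, so its SAA level was 12.4-fold higher (6.14–28.2) in the former. The monocyte-like ratio of SAA to RC was 1.23 (0.813–1.89). Too few UMIs were counted in granulocyte-like cells for a call.

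Among the other antiviral effectors, *Rsad2* and *Cmpk2* lie side by side on chromosome 12 (26442746 to 26456452 and 26469204 to 26479837). *Rsad2* encodes viperin, which makes a chain-terminating nucleotide from the product of *Cmpk2*. *Cmpk2* held 62.6 CPM in RC but 36.0 CPM in SAA among monocyte-like cells, a ratio of 0.575 (0.415–0.796). In granulocyte-like cells it stood at 14.9 and 120.0 CPM, a ratio of 8.05 (5.74–11.6). *Rsad2* had 13 and 7 UMIs in monocyte-like cells, a ratio of 0.361 (0.122–0.972), and 0 and 28 in granulocyte-like cells, at least 6.98-fold higher in SAA with the floor of 3 UMIs (lower end of the exact interval 5.31). In the monocyte-like class only *Rsad2* passed the call for lower, and it lost that call under 8 of the 14 other settings, in 6 of them for want of 20 UMIs. Among the 10 cells with the most member UMIs lay 7 of its 13 UMIs in RC monocyte-like and 13 of its 28 in SAA granulocyte-like cells. For *Cmpk2* the monocyte-like ratio was 0.958 (0.572–1.65) in cycling and 0.395 (0.229–0.662) in non-cycling cells. *Rsad2* had 1 and 3 UMIs in cycling and 9 and 4 in non-cycling monocyte-like cells of RC and SAA.

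*Isg20*, an RNA exonuclease, had 8.83 CPM in RC and 7.4 CPM in SAA in the first class, a ratio of 0.837 (0.366–1.96) without a call. In the second class it had 3.23 and 31.7 CPM, a ratio of 9.82 (4.80–23.3). *Samhd1*, which lowers the pool of deoxynucleotides, had enough UMIs for narrow intervals. It stood at 661.1 and 1312 CPM in monocyte-like cells, a ratio of 1.99 (1.84–2.14) just short of the call, and at 35.1 and 510.6 CPM in granulocyte-like cells, a ratio of 14.6 (11.7–18.3). *Bst2* (chromosome 8, 71534255 to 71537456), which encodes tetherin, stood at 109.7 and 435.3 CPM and at 8.87 and 264.2 CPM. The granulocyte-like ratio of *Bst2*, 29.8 (19.5–47.8), was 7.5 times (4.72–12.4) its monocyte-like ratio of 3.97 (3.33–4.75). *Eif2ak2*, which encodes the translation-blocking kinase PKR, had ratios of 1.74 (1.24–2.47) and 1.96 (1.49–2.60), which left out 1 but missed the 2-fold call.

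The nuclear body gene *Sp100* also reached no call, with 232.6 CPM in RC and 228.3 CPM in SAA among monocyte-like cells and 143.2 and 224.1 CPM among granulocyte-like cells. Its ratios were 0.981 (0.849–1.14) and 1.57 (1.38–1.78). Between the classes of RC the levels differed by 1.23-fold (0.835–1.78) for *Eif2ak2* and 1.63-fold (1.39–1.90) for *Sp100*. *Trim30a*, a negative regulator of inflammatory signalling, and the ADP-ribosyltransferase *Parp14* followed the main pattern. Their monocyte-like ratios were 1.87 (1.55–2.27) and 1.73 (1.38–2.18), and their granulocyte-like ratios 6.70 (4.95–9.26) and 15 (8.01–31.8).

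*Rtp4*, a chaperone of receptors that is strongly inducible by interferon, had 34 and 1 UMIs in monocyte-like and granulocyte-like cells of RC, and 124 and 304 in SAA. Its granulocyte-like ratio of 227.4 (40.5–9010) was the largest of the set among ratios with a UMI in RC, and rests on that 1 UMI. *Xaf1*, a gene linked to apoptosis, had ratios of 2.26 (1.61–3.21) and 23.2 (10.5–64.0). *Ifi35* held 33.9 CPM in RC but 58.7 CPM in SAA in the first class and 10.1 and 27.4 CPM in the second, and its ratios of 1.73 (1.22–2.49) and 2.72 (1.73–4.42) had overlapping intervals.

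*Ifi27l2a* and *Ifi44* remained genes of monocyte-like cells. *Ifi27l2a* (chromosome 12, 103442167 to 103443680) had 1993 monocyte-like and 17 granulocyte-like UMIs in RC, and 4695 and 322 in SAA. The levels of 1467, 6.86, 2315 and 97.1 CPM left a class ratio of 214.0 (133.3–368.2) in RC and 23.8 (21.3–26.8) in SAA. *Ifi44* had 36 and 0 UMIs in RC and 256 and 24 in SAA, with a class ratio of 17.4 (11.5–27.7) in SAA. The granulocyte-like to monocyte-like ratios of CPM in SAA, 0.0420 for *Ifi27l2a*, 0.0574 for *Ifi44* and 0.0810 for *Mx1*, lay within the range of 0.0371 to 0.207 of the 10 monocyte genes outside the rule that had at least 20 UMIs in SAA. Below that minimum, *Cx3cr1* had a ratio of 0.734 from 5 and 6 UMIs.

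**Figure D2:**
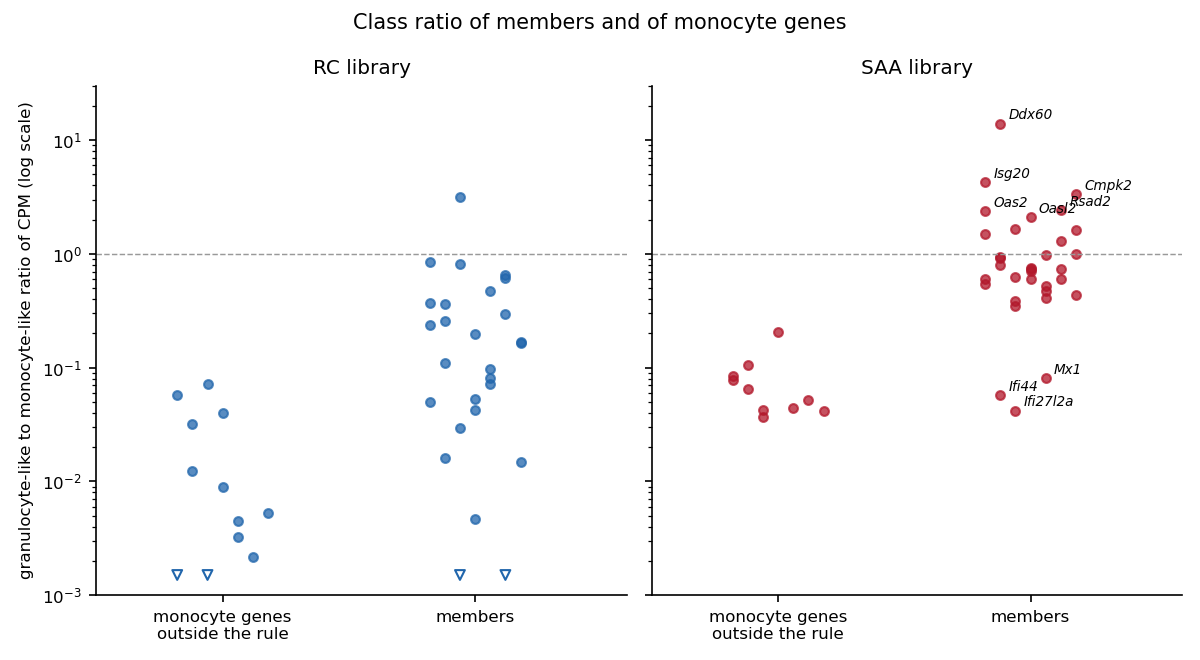
Granulocyte-like to monocyte-like ratio of CPM, on a log scale, of monocyte genes outside the class rule and of members, 1 point per gene with at least 20 UMIs, in RC (left) and SAA (right). Triangles at the bottom mark genes with 0 granulocyte-like UMIs. In SAA, *Mx1*, *Ifi44* and *Ifi27l2a* are the 3 members inside the range of the monocyte genes plotted.

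Monocyte RNA in granulocyte-like cells was measured beside these results. The sum over the 12 monocyte genes outside the rule was 6025 CPM in monocyte-like and 80.2 CPM in granulocyte-like cells of RC, and went to 6827 and 488.3 CPM in SAA. Most of the granulocyte-like rise lay in *Mpeg1* (35.9 to 206.3 CPM) and *Cd74* (0 to 142.1 CPM), while *Tmem176a* and *Tmem176b* did not rise. In monocyte-like cells *Fn1* went from 2512 to 295.8 CPM and *Cd74* from 464.5 to 3421 CPM, so the genes summed were not steady between libraries. The median ratio of granulocyte-like to monocyte-like CPM was 0.00715 over 12 of these genes in RC and 0.0580 over the 10 with enough UMIs in SAA. For the members the same median was 0.166 in RC and 0.734 in SAA. Of the 34 members, 31 stood above 5 times the SAA median of the monocyte genes. Unlike that median, the count of members sets no minimum of UMIs, and it includes *Ifit3b* with 3 and 3 UMIs in SAA. With the stricter rule, in which the winning sum had to be at least 3 times the other and to reach 10 UMIs, 27 members were still called higher in SAA in granulocyte-like cells.

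The difference between the classes was also read directly, as the granulocyte-like SAA to RC ratio over the monocyte-like ratio. It was called larger than 1 for 23 of 31 members, against 7.45% of 8015 genes, and smaller for 1, against 3.26%. In granulocyte-like cells most members met the minimum of 20 UMIs only through the SAA sum. Just 12 members reached it in RC granulocyte-like cells. Many of the large values thus rest on few RC UMIs, such as 1 for *Rtp4* and 2 for *Irf7*. The median of this quotient was 7.5 (log2 2.91), and 0.12 on the log2 scale for all genes tested. Among cells alike in cycling, by the definition given with the division of each class, the median was 2.92 in cycling and 6.54 in non-cycling cells. No call was reached for *Stat2*, *Oas1g*, *Oasl1*, *Eif2ak2*, *Sp100*, *Ifi44* and *Ifi35*. For *Oasl1* the quotient of 3.83 had a wide interval (0.425–182.3), with 1 UMI in RC granulocyte-like cells.

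**Figure D3:**
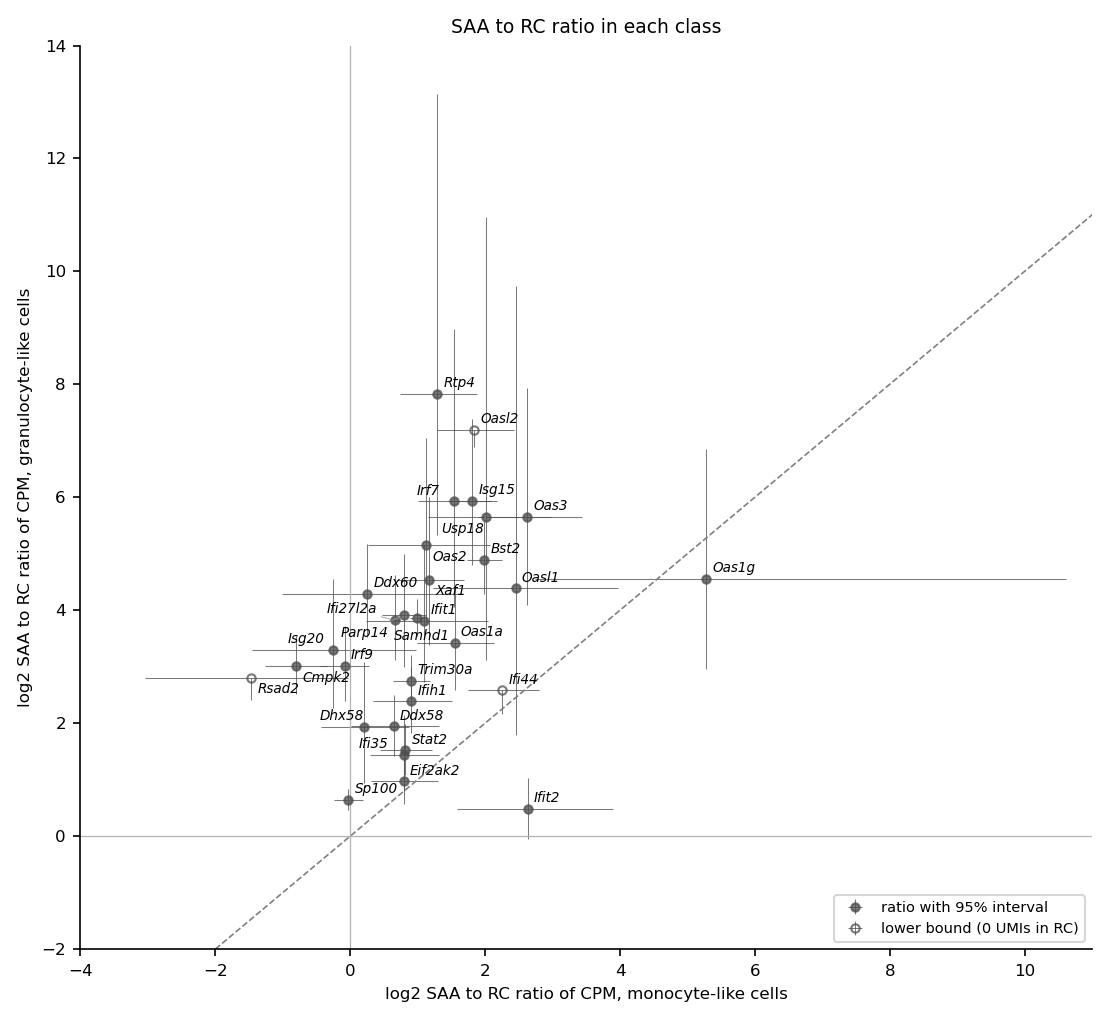
Log2 SAA to RC ratio of CPM in monocyte-like (horizontal) and granulocyte-like cells (vertical) of 31 members, with 95% counting intervals. Open points are lower bounds for genes with 0 UMIs in RC, and the dashed line marks equal ratios. Of the 31 genes, 29 lie above the line, and *Ifit2* and *Oas1g* lie below it.

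Within SAA the median distance between the classes was smaller than in RC, but 14 of 33 members still differed by at least 2-fold. Of 33 members 19 reached no call between the classes, 8 were called higher in monocyte-like cells, against 19.4% of 9084 genes, and 6 were called lower, against 8.51%. The median class ratio was 1.36-fold (log2 0.45), and 0.33 on the log2 scale for all genes. Among the 27 members measured in RC, 24 had a smaller distance between the classes in SAA, and the median absolute log2 class ratio was 2.59 in RC and 0.73 in SAA. Entry to the 27 was mostly through the RC monocyte-like sum, where 22 members held at least 20 UMIs, against 12 in RC granulocyte-like cells. That choice favours a smaller distance in SAA, and the share over all genes is not given here. *Ddx58*, *Ddx60* and *Isg20* were the 3 with a larger distance. Called higher in monocyte-like cells of SAA were *Ifit3*, *Oasl1*, *Mx1*, *Samhd1*, *Parp14*, *Ifi44*, *Ifi27l2a* and *Ifi35*. *Ddx60*, *Oas2*, *Oasl2*, *Rsad2*, *Cmpk2* and *Isg20* were called higher in granulocyte-like cells. With TMM factors (a scaling that trims extreme genes), which moved the median of all genes from 0.38 to -0.06 in RC and from 0.33 to -0.04 in SAA, 4 members were called higher in monocyte-like and 8 in granulocyte-like cells of SAA.

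**Figure D4:**
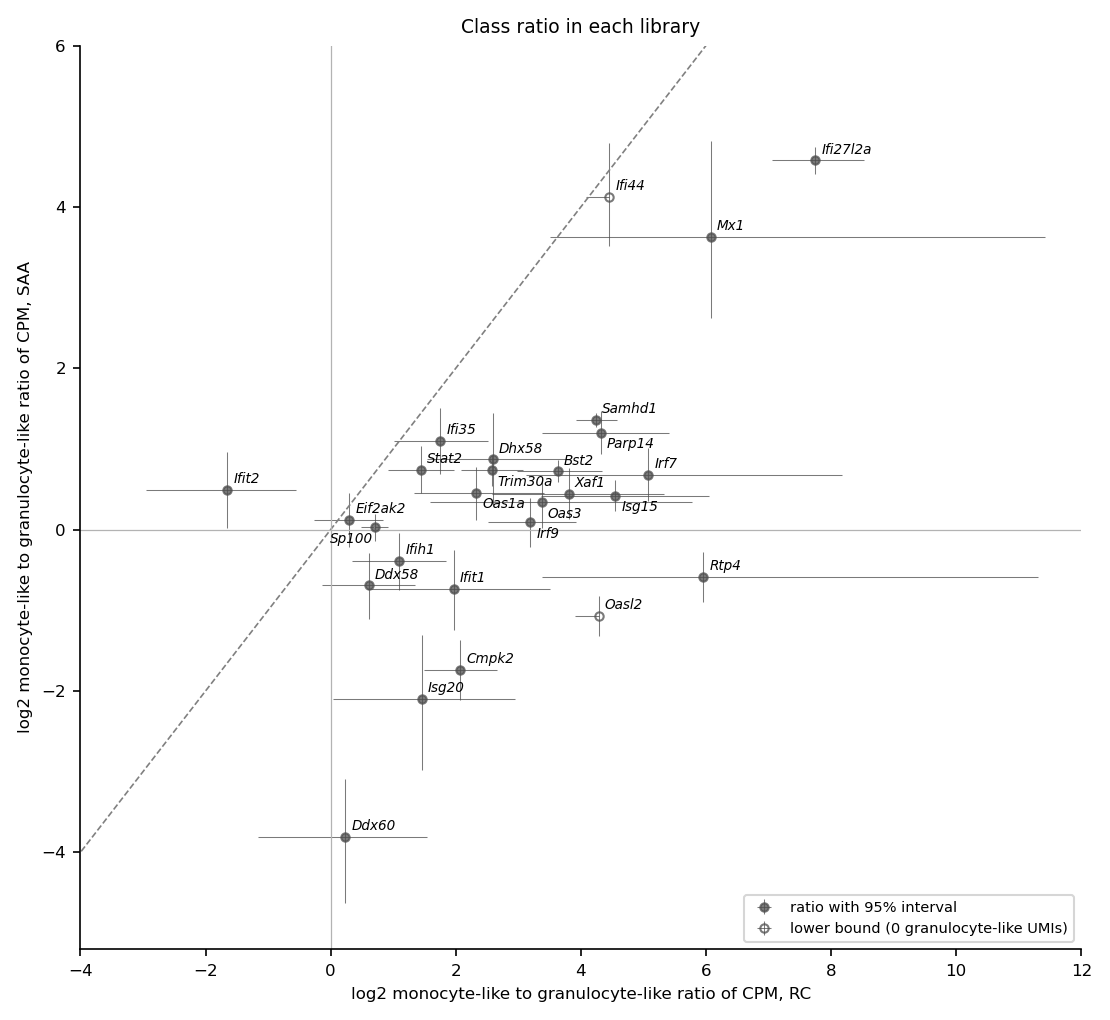
Log2 monocyte-like to granulocyte-like ratio of CPM in RC (horizontal) and SAA (vertical) of 27 members, with 95% counting intervals. Open points are lower bounds for genes with 0 granulocyte-like UMIs in RC, and the dashed line marks equal ratios. Most genes lie below the line near a vertical value of 0, while *Ifi27l2a*, *Mx1* and *Ifi44* stay high.

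The pattern was also seen per cell. The draw of 2600 UMIs per cell left out 76 monocyte-like and 1 granulocyte-like cells of RC and 18 and 8 of SAA, and the drawn UMIs of 32 members (all but *Ifi27l2a* and *Samhd1*) were added up. At least 3 such UMIs were found in 40.6% (34.6–46.8%) of monocyte-like and 5.36% (3.15–8.45%) of granulocyte-like cells of RC. In SAA the shares were 88% (83.5–91.7%) and 79.4% (75.2–83.2%). Medians were 2 and 1 UMIs per cell in RC and 6 and 5 in SAA. RC monocyte-like cells ranged from 0 to 40 such UMIs. Of their 342 cells before the draw, the 10 with the most member UMIs held 15.6% of these and 2.01% of all UMIs. Some excess was fixed by this choice of cells. Chosen alike, 10 cells held 10.9% against 2.49% in RC granulocyte-like cells. In SAA they held 7.94% against 2.61% in monocyte-like and 6.33% against 1.66% in granulocyte-like cells. The 10 RC monocyte-like cells held 13 of 15 *Ifit1*, 7 of 8 *Ifit3* and 34 of 77 *Isg15* UMIs of that class. For comparison, UMIs of the 12 monocyte genes were found in a median of 0.631% of thinned granulocyte-like cells of RC and 2.30% of SAA. The corresponding median over the 34 members was 0.473% and 11.9%.

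**Figure D5:**
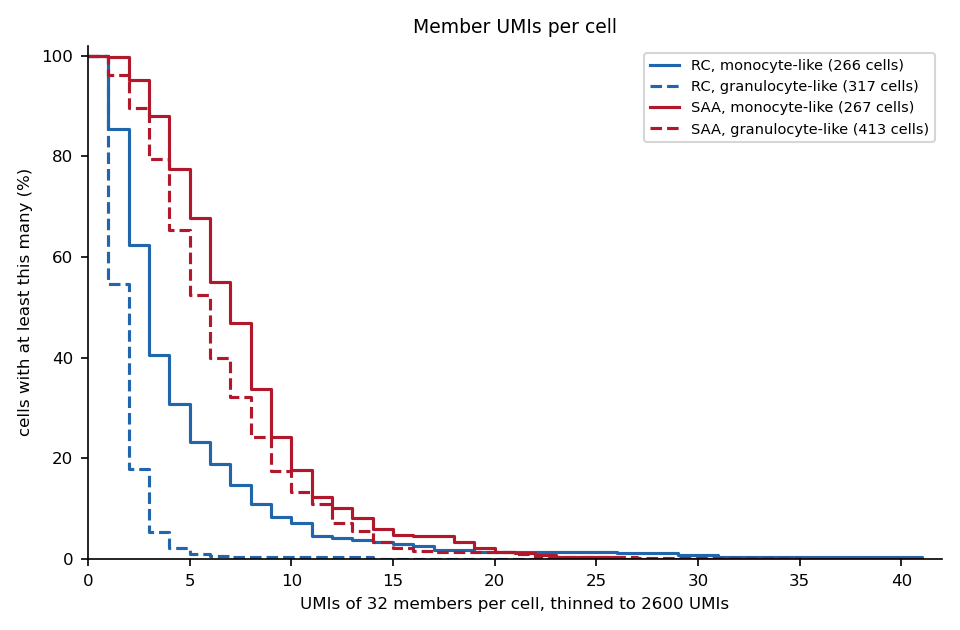
Percent of cells (vertical) with at least a given number of UMIs of 32 members (horizontal) after thinning to 2600 UMIs, in monocyte-like (solid) and granulocyte-like cells (dashed) of RC (blue) and SAA (red). The SAA curves of both classes lie close together, while the RC curves are apart and that of monocyte-like cells has a long tail up to 40 UMIs.

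Division of each class by cycling and by granule genes, made on thinned cells where cycling was concerned, moved the size of the ratios. Cells with at least 3 UMIs of 9 cycling genes were called cycling. The monocyte-like class of RC held 1553 CPM of the members in 88 cycling and 4412 CPM in 178 non-cycling cells. That of SAA held 5293 CPM in 132 cycling and 7307 CPM in 135 non-cycling cells. *Ifi27l2a* alone held 689.7 and 1925 CPM of these in RC and 2093 and 2640 CPM in SAA. The median SAA to RC ratio over the members was 3.95-fold in cycling and 2.14-fold in non-cycling monocyte-like cells. *Isg15*, for example, held 7.30 CPM in RC but 165.7 CPM in SAA in cycling monocyte-like cells, and at 86.7 and 249.6 CPM in non-cycling ones. Granulocyte-like cells had like medians in cycling (11.7-fold) and non-cycling cells (14.7-fold), with 249 and 68 cells in RC and 345 and 68 in SAA. The share of cycling cells thus differed between the classes, and between the libraries in monocyte-like cells. The sums per class mix cycling and non-cycling cells in these unlike shares. Within cycling cells alone the quotient of the class ratios was called larger than 1 for 7 of 25 members, against 6.03% of 6966 genes, and within non-cycling cells for 17 of 20, against 9.91% of 3935. In RC, 9 of 15 members were called higher in monocyte-like cells within cycling cells (19.1% of 7626 genes), with a median of 2.91-fold, and 20 of 21 within non-cycling cells (24.7% of 5801 genes), with a median of 6.47-fold. Among granulocyte-like cells the median was 8.04-fold in the 51 RC and 31 SAA cells richer in azurophil granule genes (*Elane*, *Mpo*, *Prtn3*, *Ctsg*) than in later granule genes, and 13.1-fold in the others.

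The depth of monocyte-like cells moved with these results. When at least 1500 genes per barcode were asked for, the members' median in monocyte-like cells went from 0.91 to 1.77 on the log2 scale, with 22 of 29 called higher in SAA. The count called higher in monocyte-like cells of RC went from 22 to 13 of 18 tested, and that of a larger granulocyte-like ratio from 23 to 15 of 28. With TMM factors 20 rather than 22 members were called higher in monocyte-like cells of RC.

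The genes that feed the pathway were counted from a fixed list. Of 19 genes for type I and type III interferons, 0 UMIs were found in any barcode of either library, which allows up to 0.738 CPM per gene in RC and 0.536 in SAA. *Ifng*, which encodes interferon-γ, had 0 UMIs in RC and 48 UMIs in 20 barcodes of SAA. Of these UMIs 9 lay in monocyte-like and 4 in granulocyte-like cells, and the rest in barcodes outside both classes. The receptor chains were expressed in both classes of RC, *Ifnar1* at 54.5 CPM in the monocyte-like and 10.5 CPM in the granulocyte-like class and *Ifnar2* at 247.4 and 56.1 CPM. Their SAA to RC ratios lay between 0.676 and 1.29. *Socs1*, a feedback inhibitor, had ratios of 76.5 (29.7–282.0) and 18 (10.3–34.1), and *Irf1*, a factor best known downstream of interferon-γ, 6.45 (4.84–8.76) and 7.66 (5.46–11). The ratio of *Socs1* was thus smaller in granulocyte-like cells, and the intervals of *Irf1* overlapped.

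Of all 44 pathway genes, 7 of 21 with enough UMIs were called higher in SAA in monocyte-like and 6 of 20 in granulocyte-like cells, while 2 and 1 were called lower. Over all genes the shares were 6.85% and 6.12% higher, and 8.14% and 4.51% lower. A further 26 ISGs outside the set were called higher in 13 of 22 and 19 of 21 cases, with median ratios of 2.33-fold and 3.97-fold. For all genes tested the medians were -0.06 and 0.04 on the log2 scale. Some of the 26 met the minimum in granulocyte-like cells only through the SAA sum, such as *Zbp1* and *Ifitm1* with 2 RC UMIs each. The class difference was smaller there, with a median quotient of 2.0 and 8 of 20 called larger, against 7.45% of all genes.

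Genes of other kinds of cells were read as well. At least 2 UMIs of T cell receptor and CD3 genes were found in 0 RC cells of either class, and in 10 monocyte-like and 8 granulocyte-like cells of SAA. The 10 genes of T and NK cells summed to 13.3 and 409.7 CPM in monocyte-like and granulocyte-like cells of RC, and to 195.7 and 343.5 CPM in SAA, with 8 of them at 0 in granulocyte-like cells of RC, where *Nkg7* held 395.6 CPM. Without barcodes that hold at least 3 UMIs of these genes, 16 members were called higher in SAA in monocyte-like and 29 in granulocyte-like cells. Of 8 genes of plasmacytoid dendritic cells *Siglech*, *Klk1* and *Ly6d* were at 0 throughout, and the list summed to 69.9 and 27 CPM in the monocyte-like and granulocyte-like sums of RC and 26.1 and 13.9 CPM in SAA. In that order macrophage genes summed to 58.9, 110.5, 185.9 and 32.9 CPM. Conventional dendritic cell genes summed to 37.5, 0.403, 1.97 and 1.21 CPM, and progenitor genes to 2.94, 39.5, 3.94 and 5.73 CPM. In monocyte-like cells *C1qa*, *C1qb* and *C1qc* had 1, 0 and 0 UMIs in RC and 60, 135 and 65 in SAA. Whether the make-up of the classes moved with these genes was not tested. Mitochondrial UMIs made up 1.80% and 2.01% of the monocyte-like and 1.39% and 1.65% of the granulocyte-like sums of RC and SAA.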

How the data were processed

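The deposited values are raw counts of UMIs per gene and cell barcode for the barcodes called cells, which the authors made from 10x Genomics 5′ libraries. The submitters' processing notes name Cell Ranger 6.0.1 and mm10. Barcodes with fewer than 1000 genes were removed, and no kept barcode held over 25% mitochondrial UMIs. No doublet caller was run, and barcodes with UMIs of both classes, 12 monocyte-like and 7 granulocyte-like in RC and 46 and 14 in SAA, were removed under the stricter rule. The libraries share 1 barcode sequence, and 2 RC and 23 SAA cells fell in neither class. Columns of per-sample values left unused numbered 0.

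UMIs were summed per library and class. CPM, ratios and exact 95% intervals came from scipy 1.17.1 and numpy 2.4.6, with tables handled in pandas 2.3.3 under Python 3.11.15, and the procedures were tested on simulated data. A sum of 0 was set to a floor of 3 UMIs for folds. Cells were thinned with seed 42. TMM factors came from edgeR 4.0.16 under R 4.3.3, transcript identity from Biopython 1.88 and figures from matplotlib 3.10.9. Coordinates come from GENCODE M21 (GRCm38), which matched 31011 of 31053 gene identifiers, and promoters from RefSeq. All 35 members are named by rule, and no test between conditions was made with 1 library each. Members, lists and settings were chosen with earlier results of these data known, and the removal of barcodes with T cell receptor genes was added after the data had been seen. Values of *Mx2* and of *Oas1b* in the wider ISG list were not analysed here. The values of 1 gene of the pathway list are not reported here.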

Additional observations from a re-analysis of the deposited data

Results flagged for a closer look

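*Rsad2* had an SAA to RC ratio of 0.361 (0.122–0.972) in monocyte-like cells, from 13 UMIs in RC and 7 in SAA. It was at least 6.98-fold higher in SAA in granulocyte-like cells with the floor of 3 UMIs (lower end of the exact interval 5.31). The ratios thus lay on opposite sides of 1. The monocyte-like call for lower was lost under 8 of the 14 other settings. In cycling monocyte-like cells the ratio was 1.35 (0.108–70.8), from 1 and 3 UMIs. With 1 library per condition the difference between the classes was not tested.

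In the barcodes under 1000 genes, which the comparisons leave out, the 34 genes summed to 675 UMIs in 136 RC barcodes and 732 UMIs in 96 SAA barcodes. The levels were 3038 and 5267 CPM, a ratio of 1.73 (1.56–1.93).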

How the results depend on the processing

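Among counts and medians recomputed under 14 other settings, 192 values stayed within 1.5 times the count, or for a median between the medians of the members' interval bounds, and 18 moved. For single genes 1968 values stayed in their intervals, 117 moved and 1 turned. The limit of 25% mitochondrial UMIs, 1 of the 14 settings, removed no barcode. Its values could not move and are counted among those that stayed. The band for counts is wide, as 22 against 15 members called higher in monocyte-like cells of SAA lies within it. The turned value is the log2 quotient of the class ratios of *Ddx58*, 1.30, which became -0.14 with at least 1500 genes per barcode. In monocyte-like cells the count called lower in SAA was 1 (*Rsad2*), and 0 with TMM factors, the median of gene ratios, at least 1500 genes, the stricter class rule, without barcodes with T or NK markers, without the top cell of each gene and at a minimum of 50 UMIs, and 2 with cells weighted equally. The median there was 1.77 with at least 1500 genes. In RC the count higher in monocyte-like cells was 13 with at least 1500 genes and 12 with at least 50 UMIs per gene, where fewer members are tested, and the count lower was 0 in thinned cells. In SAA the count higher in monocyte-like cells was 4 with TMM factors and 5 with the median of gene ratios, with medians of 0.080 and 0.11 on the log2 scale, and the count lower was 3 in thinned cells. The count of larger granulocyte-like ratios was 15 with at least 1500 genes. The cause of these moves was not tested. Counts called higher in SAA ranged from 24 to 29 in granulocyte-like and from 14 to 22 in monocyte-like cells.

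No paired analysis was possible because each condition is 1 library of pooled cells. Intervals reflect counting alone, so a difference between pools of mice from any source, handling included, cannot be told apart from one between conditions. Genes with under 20 UMIs in a comparison were given no call, which left *Ifit3*, *Ifit3b* and *Mx1* without one in granulocyte-like cells.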

Other observations

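Over the 4 sums of CPM (2 classes by 2 libraries), the genes outside the set whose centred log2 profile lay nearest to the members' median profile were *H2-T23*, *Parp12*, *Bcl3*, *Lgals3bp* and *Nlrc5*, at distances of 0.73 to 0.81 among 7073 genes with at least 100 UMIs. *Bcl3*, an IκB-like cofactor of NF-κB, had 33 and 67 UMIs in monocyte-like and 3 and 116 in granulocyte-like cells of RC and SAA. Its ratios were 1.36 (0.884–2.13) and 28.9 (9.65–142.3). *Nlrc5*, the transactivator of MHC class I genes, had ratios of 5.0 (2.91–9.23) and 28.4 (10.9–105.7). With 4 points, likeness of profile is a description only.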
